A study of Mus musculus with 6 samples.

Results

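The endoplasmic reticulum (ER) is where a cell folds the proteins it secretes or places in its membranes, and 33 genes of this machinery were followed in mouse lens capsules before and after cataract surgery. They were taken by name as a fixed list, which was chosen with earlier results of these data known. It holds 11 chaperones and their cofactors, 4 protein disulfide isomerases, 3 stress sensors with the transcription factor Xbp1, 4 genes of ER-associated degradation (ERAD), 6 genes of the translocon and 4 genes of COPII export. All 33 were found among the 56940 genes of each library and all 33 passed the low-count filter. The lowest total over the 3 libraries at 0 h was 63 reads.

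The 5 day samples were lens capsules with their attached lens epithelial cells, collected 5 days after the fiber cell mass had been removed by an anterior cut. They were compared with capsules collected at the time of the same operation (0 h). Both groups were wildtype C57BL/6 mice with no other agent or allele, and the labels give no age. Capsules were pooled by 5 for a library, and each time had 3 such pools. The 0 h capsules were taken from the eye left intact until then, in mice whose fellow eye had had its surgery 5 days before, so these animals also carried a wound. Nothing in the labels says whether a pool at 5 days and a pool at 0 h share mice, and p-values measure the spread between pools.

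Newly made secretory proteins enter the ER through the Sec61 channel, are folded and cross-linked by chaperones and disulfide isomerases, and leave in COPII vesicles, while misfolded ones are sent back for degradation. When unfolded protein builds up, the sensors IRE1, PERK and ATF6 start the unfolded protein response, which raises the genes of this same machinery. Lens epithelial cells are secretory cells that lay down the capsule around the lens, and wound cells secrete large amounts of matrix.

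Part of this response is known to act through short promoter elements, so those elements are shown first. The ER stress response element, ERSE, is read in mammalian cells by NF-Y at its CCAAT end and by ATF6 at its CCACG end. It was searched on both strands, as CCAAT and CCACG with 9 bases of any kind between them, in RefSeq promoters of build GRCm38.p6, from 250 bases before to 50 bases after each start. Promoters were listed for 28 of the 33 genes, and 8 of the 28 held it. Of all 32851 promoter entries, 39 held it, or 0.119%. Counted by gene, as for the 28, it was held by 15 of the 10473 tested genes with a listed promoter, or 0.143%. These 15 include the 8, and the difference in share was not tested. The element is already known from this response, so its share among these genes is not a result of these data. Only exact letters were searched, so a promoter with a variant of the element counts as having no match. The stretches below, from the 8 genes with a match, run 5′ to 3′ on the gene's strand. The fixed letters of the element are in capitals. The build differs from that of the counts (GRCm39) and the coordinates belong to the promoter table alone.
Hspa5 (chr2:34772013-34772055, + strand): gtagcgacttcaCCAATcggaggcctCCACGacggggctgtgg
Hsp90b1 (chr10:86705521-86705668, - strand): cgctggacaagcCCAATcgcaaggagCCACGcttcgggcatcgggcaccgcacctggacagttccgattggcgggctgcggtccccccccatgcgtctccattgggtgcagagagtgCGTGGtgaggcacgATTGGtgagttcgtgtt
Calr (chr8:84847063-84847105, - strand): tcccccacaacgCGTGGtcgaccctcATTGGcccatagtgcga
Canx (chr11:50325788-50325830, - strand): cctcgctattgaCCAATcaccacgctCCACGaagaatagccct
Dnajc3 (chr14:118937815-118937857, + strand): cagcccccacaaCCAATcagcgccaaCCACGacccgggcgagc
Creld2 (chr15:88819508-88819550, + strand): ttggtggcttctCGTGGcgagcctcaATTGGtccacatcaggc
Pdia6 (chr12:17266479-17266521, + strand): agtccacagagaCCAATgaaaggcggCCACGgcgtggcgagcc
Syvn1 (chr19:6046520-6046562, + strand): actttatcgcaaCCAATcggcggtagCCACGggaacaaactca

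A related element, ERSE-II, was searched as ATTGG and CCACG with 1 base of any kind between them, and was found in Herpud1 and in Dnajb11, where it lay after the start. It occurred in 0.0365% of all promoter entries and 0.0859% of tested genes with a listed promoter. The XBP1 element UPRE, searched as TGACGTGG, was found in Sec24d and, after the start, in Sec23a. It occurred in 0.676% of all promoter entries and 1.08% of those tested genes. The amino acid response letters TGATGNAA were found in Herpud1, in 3.97% of all promoter entries and in 2.65% of those tested genes. No match of these letters overlapped another in the same promoter. Herpud1 and Sec24d are shown because they hold the elements that differ from the ERSE. They are described again below as the gene that fell and as a gene of export.
Herpud1 (chr8:94386365-94386399, + strand, ERSE-II): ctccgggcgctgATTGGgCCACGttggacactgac
Sec24d (chr3:123267458-123267489, + strand, UPRE): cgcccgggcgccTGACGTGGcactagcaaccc

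Gene counts per library were 6207387 to 8682659 at 5 days and 7709815 to 9774343 at 0 h. Levels are given as CPM, the reads of a gene scaled to a common library size, with TMM factors that correct for library composition. A change is the log2 fold change, 5 days over 0 h, followed by its standard error (SE). A gene was called at an adjusted p under 0.05 in the quasi-likelihood test of edgeR, with p-values adjusted over all 14676 tested genes (Benjamini-Hochberg). At 5 days, 24 of the 33 genes had their highest value in replicate 3 and 24 their lowest in replicate 2. Both lens markers and markers listed for other cells moved with time. Summed lens epithelial markers (7 genes, 5 lower and 1 higher) stood at 6400 to 17850 CPM at 5 days and 59990 to 72950 CPM at 0 h, most of it the crystallin Cryaa (79.9 to 90.1% at 5 days and 95.8 to 96.6% at 0 h). The 6 others summed to 1285 to 1770 CPM at 5 days and 2487 to 2502 CPM at 0 h. Summed macrophage markers (10 genes, all 10 higher) stood at 527.3 to 741.1 CPM at 5 days and 19.2 to 43.0 CPM at 0 h. Fibroblast markers (of 5 tested, 4 higher and Pdgfra lower, with Dpt without a count) summed to 1463 to 2506 CPM at 5 days and 373.1 to 399.6 CPM at 0 h. Col1a1 was 48.4 to 53.8% of this at 5 days and 0.6 to 3.4% at 0 h. Mean CPM at 5 days and at 0 h was 688.5 and 42.4 for Col1a2, and 191.6 and 335.4 for Pdgfra. It was 22.9 and 2.10 for Dcn, and 7.21 and 0.269 for Lum. Which cells made these transcripts was not tested. Lens fiber markers (all 6 tested lower) summed to 434.6 to 1895 CPM at 5 days and 10570 to 12260 CPM at 0 h, and photoreceptor markers (all 7 lower) to 32.5 to 93.2 CPM at 5 days and 505.3 to 773.5 CPM at 0 h. Antibody-secreting cells carry much of this machinery. Their 10 listed markers summed to 152.6 to 226.9 CPM at 5 days and 90.2 to 94.4 CPM at 0 h. Sdc1, which epithelium also makes, was 97.2 to 99.6% of this at 5 days and 80.6 to 89.3% at 0 h. The antibody light chain gene Igkc, the only other of these 10 that was tested, fell by 3.15 (SE 0.62, adjusted p = 0.00118 by edgeR), at 1.45 ± 1.36 CPM at 5 days and 12.01 ± 3.66 CPM at 0 h (SD, n = 3 each). Mzb1, Cd79a, Ms4a1 and Tnfrsf17 had no count at 5 days, and Cd79a, Cd79b and Ms4a1 had none at 0 h. The untested genes went both ways, in reads over the 3 libraries of a time. Ighm held 27 reads at 5 days and 3 at 0 h, and Cd79b held 4 at 5 days. Jchain held 2 reads at 5 days and 9 at 0 h, Mzb1 held 8 and Tnfrsf17 held 2 at 0 h, and Derl3 held 3 at each time. The part that the changing mix of cells has in the results below was not tested, and in pooled tissue more cells of a type and more RNA per cell cannot be told apart.

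Most of the ER machinery stood higher 5 days after surgery. Of the 33 genes, 27 rose (81.8%), 1 fell and 5 were not called. Over all tested genes 25.1% rose and 22.5% fell, so that 47.6% were called in either direction. Among the 6809 tested genes with a mean of at least 20 CPM, which is the range of 32 of the 33, 30.3% rose and 27.4% fell, and 26 of those 32 rose. The changes were moderate. The median log2 fold change of the 33 was 0.63, against -0.01 over all tested genes, and 8 genes rose at least 2-fold, as did 14.5% of all tested genes. All 3 libraries at 5 days stood above all 3 at 0 h for 29 of the 33 genes, and for 29.9% of all tested genes. The reverse held for 1 of the 33 and for 28.2% of all tested genes. Together the 33 genes took 0.798, 0.734 and 0.910% of gene counts at 5 days, and 0.427, 0.432 and 0.449% at 0 h, so that every library at 5 days lay above every library at 0 h. The count of 27 was 24 to 27 with any single library left out.

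**Figure D1:**
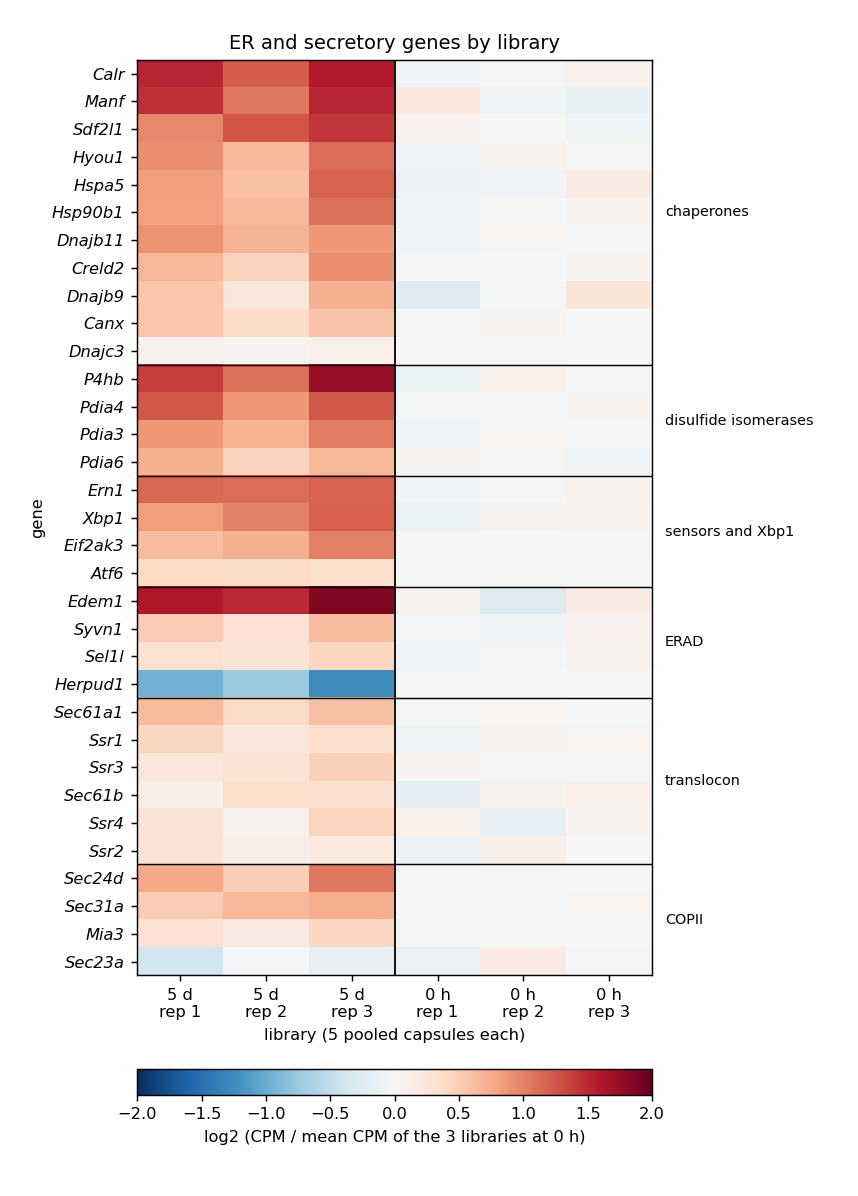
Each row is a gene and each column a library, 5 days left of 0 h; colour gives log2 of CPM over the mean CPM of the 3 libraries at 0 h. Most chaperone, isomerase and sensor rows are raised in all 3 libraries at 5 days, while the Dnajc3 row is nearly level, the Herpud1 row is lowered and the translocon rows are pale.

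Chaperones, which hold unfolded chains and keep them from clumping, rose for 10 of 11 genes, against 25.1% of all tested genes. Their median log2 fold change was 0.87. Calreticulin (Calr, ENSMUSG00000003814), the soluble lectin chaperone that binds sugar chains on new glycoproteins, stood at 1178, 945.1 and 1221 CPM at 5 days and at 393.6, 400.5 and 431.2 CPM at 0 h. Its lowest library at 5 days was well above its highest at 0 h, and the change was 1.45 (SE 0.12, adjusted p = 1.58e-06 by edgeR). Calnexin (Canx, ENSMUSG00000020368), its membrane-bound partner, stood at 980.3, 860.4 and 988.4 CPM at 5 days and at 647.6, 692.2 and 659.6 CPM at 0 h. The groups did not overlap, yet the Canx change was smaller, 0.50 (SE 0.11). Per kilobase of exon the levels of the pair were 387.2 CPM for Calr and 200.9 CPM for Canx at 5 days, and 141.8 CPM for Calr and 142.0 CPM for Canx at 0 h. By this measure Calr and Canx were thus level with each other at 0 h and apart at 5 days, though this difference was not tested. The measure divides by the union of all annotated exons, so a comparison between genes depends on that length.

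The Hsp70 chaperone BiP (Hspa5, ENSMUSG00000026864), which also keeps the stress sensors silent until unfolded protein draws it away, stood at 518.2 ± 108.8 CPM at 5 days and 280.5 ± 31.1 CPM at 0 h (SD, n = 3 each). Its lowest library at 5 days, at 420.8 CPM, was above its highest at 0 h, at 316.2 CPM, and the change was 0.89 (SE 0.15). Hsp90b1 (ENSMUSG00000020048), the ER form of Hsp90 and a partner in folding integrins, stood at 665.2, 589.7 and 810.7 CPM at 5 days and at 361.4, 378.2 and 388.6 CPM at 0 h, a change of 0.87 (SE 0.12). Replicate 3 was the highest at 5 days for both. Hyou1, which exchanges the nucleotide on BiP, rose by 0.91, and Dnajb11, a J-domain partner of BiP, by 0.82.

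Manf (ENSMUSG00000032575), an ER protein that can be secreted and that protects cells under ER stress, stood at 93.4, 71.1 and 97.8 CPM at 5 days and at 39.3, 32.1 and 30.6 CPM at 0 h. No library at 5 days came near those at 0 h, and the change was 1.36 (SE 0.14, adjusted p = 8.69e-06 by edgeR). Sdf2l1 (ENSMUSG00000022769), a cofactor of BiP and Dnajb11, stood at 4.93, 6.03 and 6.79 CPM at 5 days and 2.69, 2.52 and 2.38 CPM at 0 h. Its groups were separate, and its change was 1.23 with the largest SE of the list, 0.32. Per kilobase of exon it was the scarcest of the 33, at 5.34 CPM at 5 days and 2.29 CPM at 0 h. Creld2, an ER stress-inducible protein of the folding machinery, rose by 0.70 (SE 0.14).

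The J-domain proteins of BiP differed in size of change. Dnajb9, which also helps to repress IRE1, stood at 33.6, 26.9 and 37.6 CPM at 5 days and 19.1, 22.6 and 27.2 CPM at 0 h, so the groups overlapped. Its change of 0.51 (SE 0.17) passed the test with all libraries. Leaving out either of replicates 1 and 2 of 0 h, or either of replicates 1 and 3 of 5 days, ended the Dnajb9 call, at 0.38 to 0.49. Dnajc3, which also dampens PERK, was the chaperone that was not called, at 138.5, 137.4 and 139.7 CPM at 5 days and 129.2, 132.6 and 128.9 CPM at 0 h. The Dnajc3 groups did not overlap, but the change was 0.09 (SE 0.09, adjusted p = 0.422 by edgeR).

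**Figure D2:**
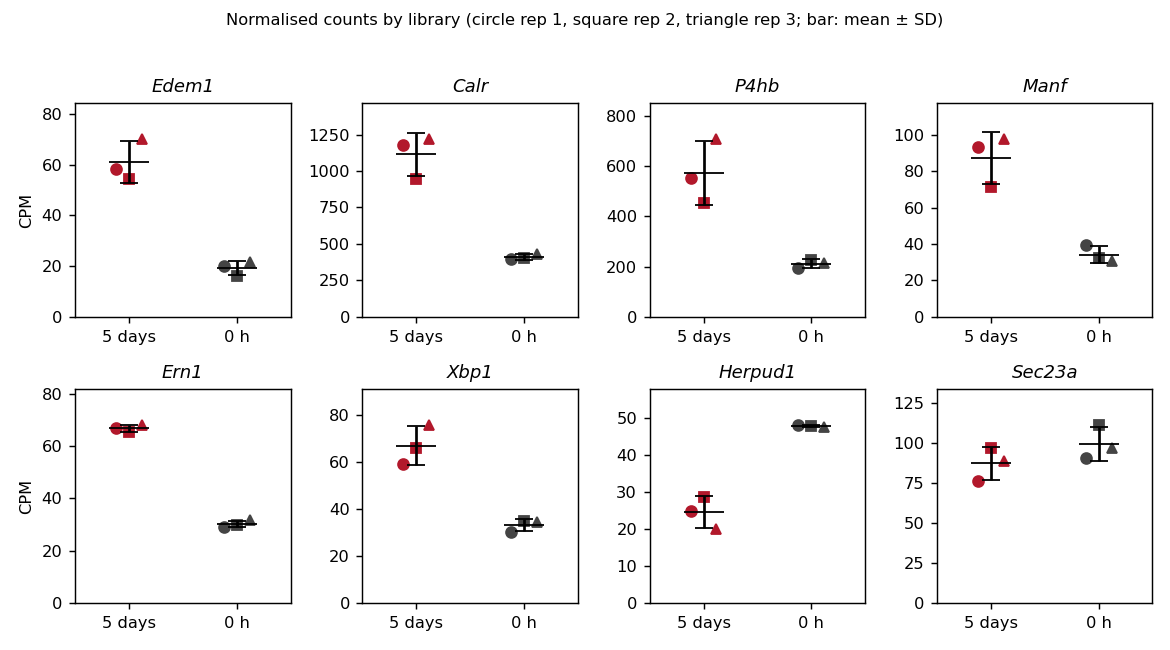
Points give CPM of 8 genes in each library, with 5 days left of 0 h, and bars give the mean ± SD of 3 libraries. Edem1, Calr, P4hb, Manf, Ern1 and Xbp1 lie above their 0 h libraries in all 3 libraries at 5 days, Herpud1 lies below them, and the Sec23a groups overlap.

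Protein disulfide isomerases, which form and rearrange the bonds between cysteines, rose for all 4 genes, against 25.1% of all tested genes. Their median log2 fold change was 1.00. P4hb (ENSMUSG00000025130), the founding isomerase and also the β subunit of the collagen prolyl 4-hydroxylase, stood at 552.4, 453.3 and 708.1 CPM at 5 days and at 193.3, 227.4 and 215.4 CPM at 0 h. The groups were far apart, at a change of 1.43 (SE 0.15, adjusted p = 8.94e-06 by edgeR). Pdia4 (ENSMUSG00000025823) stood at 478.2, 371.7 and 479.7 CPM at 5 days and at 200.01, 198.7 and 209.8 CPM at 0 h, a change of 1.13 (SE 0.12). Pdia3 (ENSMUSG00000027248), which works on glycoproteins held by calreticulin and calnexin, stood at 571.3, 507.0 and 640.5 CPM at 5 days and at 302.8, 320.0 and 315.6 CPM at 0 h. Pdia3 changed by 0.87 (SE 0.11) and Pdia6, which helps to switch off IRE1, by 0.61 (SE 0.10). Per kilobase of exon P4hb stood at 199.7 CPM at 5 days and 74.1 CPM at 0 h, and Pdia3 at 182.5 CPM at 5 days and 99.7 CPM at 0 h, as means. By this measure, which depends on the same choice of length, P4hb was below Pdia3 in all 3 libraries at 0 h. At 5 days it was above Pdia3 in replicates 1 and 3 and below it in replicate 2, at 158.5 CPM for P4hb and 161.5 CPM for Pdia3, and this difference was not tested.

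The stress sensors rose too, each in all 3 libraries. Ern1 (ENSMUSG00000020715) encodes IRE1α, the kinase and RNase that splices Xbp1 mRNA. It stood at 66.8, 65.5 and 68.2 CPM at 5 days and at 29.1, 29.9 and 31.6 CPM at 0 h, with very little spread in either group. The change was 1.15 (SE 0.10, adjusted p = 2.36e-06 by edgeR). Xbp1 (ENSMUSG00000020484), the transcription factor made active by that splicing, stood at 59.0, 66.2 and 75.9 CPM at 5 days and at 30.0, 34.8 and 34.5 CPM at 0 h, a change of 1.02 (SE 0.12). Gene counts do not separate spliced from unspliced Xbp1, so the activity of IRE1 was not measured.

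Eif2ak3 (ENSMUSG00000031668), the kinase PERK that slows translation, stood at 48.1, 51.6 and 63.2 CPM at 5 days and at 31.2, 31.3 and 31.8 CPM at 0 h. The lowest library at 5 days lay above all of 0 h, with a change of 0.79 (SE 0.12). Atf6 (ENSMUSG00000026663), the membrane-bound factor cut in the Golgi to free its active part, stood at 79.9, 79.4 and 77.6 CPM at 5 days and at 60.1, 61.2 and 60.7 CPM at 0 h. The Atf6 groups were tight and separate, and the change was 0.38 (SE 0.09, adjusted p = 0.00433 by edgeR).

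ERAD genes held both the largest rise and the fall. Edem1 (ENSMUSG00000030104), which trims mannose from misfolded glycoproteins and hands them on for degradation, stood at 58.4, 54.4 and 70.2 CPM at 5 days and at 20.2, 16.02 and 21.5 CPM at 0 h. Its lowest value at 5 days was above the highest at 0 h by a wide margin, and the change of 1.67 (SE 0.15, 3.18-fold, adjusted p = 2.09e-06 by edgeR) was the largest of the 33. Herpud1 (ENSMUSG00000031770), a membrane scaffold of the same degradation complex, stood at 24.99, 28.6 and 19.9 CPM at 5 days and at 48.2, 48.0 and 47.6 CPM at 0 h. It was the gene of the list that fell, by 0.97 on the log2 scale (SE 0.14, adjusted p = 0.000116 by edgeR), and replicate 3 at 5 days, the highest library for most of the list, was its lowest. Across the 14 other settings and left-out libraries the Herpud1 log2 fold change was -1.10 to -0.84 and the call was kept. The ubiquitin ligase Syvn1 and its adaptor Sel1l, which form the channel complex that Herpud1 joins, rose by 0.48 (SE 0.13) and 0.34 (SE 0.09). Sel1l, with the most reads of these 4 genes, stood at 176.2, 173.9 and 193.6 CPM at 5 days and 137.9, 141.0 and 150.8 CPM at 0 h.

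Translocon genes had the smallest median change of the 6 role groups. Of 6, 3 rose and 3 were not called, where 25.1% of all tested genes rose. The median log2 fold change was 0.30. Sec61a1 (ENSMUSG00000030082), the pore-forming subunit of the channel, stood at 239.4, 201.6 and 230.9 CPM at 5 days and at 151.3, 157.7 and 153.4 CPM at 0 h. The groups were separate and the change was 0.54 (SE 0.10). Ssr3 (ENSMUSG00000027828), a subunit of the translocon-associated protein complex, stood at 250.5, 261.5 and 299.1 CPM at 5 days and at 223.2, 213.1 and 211.9 CPM at 0 h, a change of 0.32 (SE 0.10). Ssr3 was not called when replicate 2 or replicate 3 of 0 h was left out, at 0.31 and 0.30. The Ssr1 change of 0.33 was 0.28 and not called without replicate 1 at either time. Ssr4, Sec61b and Ssr2 were not called, at 0.27 (SE 0.14), 0.28 (SE 0.14) and 0.20 (SE 0.11), and each of these was called higher when libraries were scaled by their totals. Reads of Sec61b are uncertain because a close copy, Gm10320, matched its transcript at 98.3% over 474 bases, and the pseudogenes Gm33666 and Gm5870 matched shorter stretches. The same search found pseudogenes for Calr (Calr-ps, 92.5% over 495 bases) and Dnajb9 (Gm6568, 93.3% over 697 bases). Reads of Calr and Dnajb9 carry the same limit. Stretches of Hsp90b1, Eif2ak3 and Sec61a1 matched a gene on the opposite strand whose exons overlap theirs. Counts of these genes therefore depend on the strand setting, which is not stated.

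COPII genes, which build the vesicle coat that leaves the ER, rose for 3 of 4, against 25.1% of all tested genes. This count of few genes was not tested against that share. Sec24d (ENSMUSG00000039234), a cargo-binding coat subunit needed for collagen export in skeletal tissue, stood at 49.5, 41.2 and 60.8 CPM at 5 days and at 29.0, 29.5 and 29.1 CPM at 0 h. The groups did not overlap and the change was 0.79 (SE 0.14, adjusted p = 0.000664 by edgeR). Sec31a, of the outer coat, rose by 0.63 (SE 0.09). Mia3 (ENSMUSG00000056050), the receptor TANGO1 that loads procollagen into carriers, stood at 237.1, 221.1 and 263.7 CPM at 5 days and at 191.7, 198.0 and 194.6 CPM at 0 h. Its change of 0.30 (SE 0.10) kept its call only with all libraries or with replicate 2 of 5 days left out, and without any other the Mia3 change was 0.22 to 0.31. Sec23a (ENSMUSG00000020986), the inner coat subunit that pairs with Sec24 proteins, stood at 76.4, 96.7 and 88.9 CPM at 5 days and at 90.5, 111.5 and 96.9 CPM at 0 h. These groups overlapped, and the change of -0.19 (SE 0.12, adjusted p = 0.203 by edgeR) was not called.

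**Figure D3:**
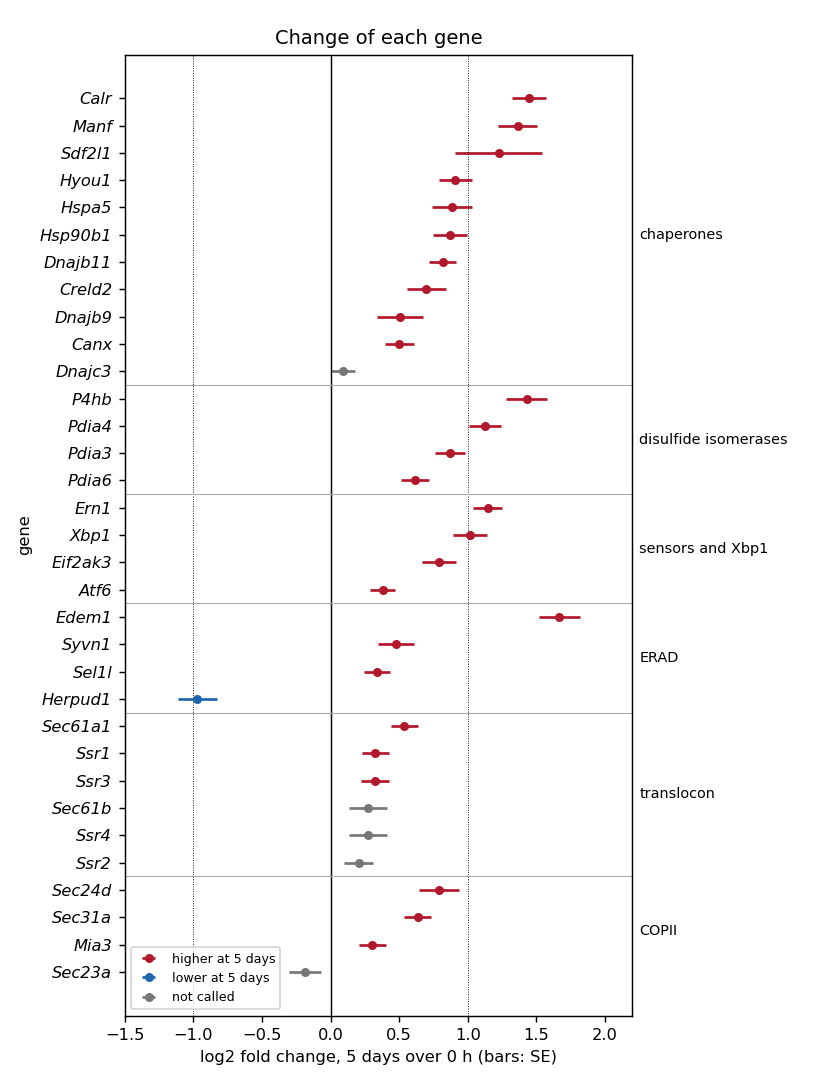
The horizontal axis gives the log2 fold change of 5 days over 0 h with its SE for each of the 33 genes, grouped by role, with dotted lines at 2-fold. Edem1 lies farthest to the right at 1.67, Herpud1 farthest to the left at -0.97, and the translocon genes lie between 0.20 and 0.54.

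The changes were also set beside the ERSE letters, and the difference between genes with and without them was not tested. The 8 genes with an ERSE changed by 0.09 to 1.45, with a median of 0.66, and 7 rose. The other 20 genes with a listed promoter, Herpud1 and Dnajb11 with their ERSE-II among them, changed by -0.97 to 1.67, with a median of 0.71, and 16 rose. Of the 3 genes with the largest changes of the list, Calr had a match and Edem1 and P4hb had none in their windows. Dnajc3, which was not called, had one. Outside the list, 7 tested genes had an ERSE, of which 3 rose (Adcy3, Hnrnpa3 and Zfp57), 2 fell (Pan2 and Spats2l) and 2 were not called (Acacb and Alg12). Over all tested genes 25.1% rose and 22.5% fell, and these 7 are too few to be told from those shares. Alg12 shares its match with the neighbouring Creld2, and the pair differed, at -0.32 (SE 0.26, not called) for Alg12 and 0.70 (SE 0.14) for Creld2.

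The wider pathway was read from further lists of named genes, also chosen with earlier results of these data known. Of 151 other genes, listed by role, 147 were tested, with a median change of 0.41. The test called 81 of the 147 higher and 10 lower. Over all tested genes the shares were 25.1% higher and 22.5% lower, and the lists that follow are to be read beside these. Among 31 other tested genes of folding, 19 rose and 2 fell. Calu, a calcium-binding ER protein, had the most reads of them, at 686.7 ± 109.9 CPM at 5 days and 210.1 ± 20.3 CPM at 0 h (SD, n = 3 each), a change of 1.71 (SE 0.13). Fkbp11, a prolyl isomerase of secretory cells, rose by 2.35 (SE 0.57) from a low level, at 2.70 ± 1.25 CPM at 5 days and 0.533 ± 0.181 CPM at 0 h (SD, n = 3 each). Fkbp11 passed the low-count filter only through the 5 day libraries, so from its 0 h level it could enter the test only by rising. Cdnf, the paralogue of Manf, fell by 1.78 (SE 0.42), at 1.58 ± 0.746 CPM at 5 days and 5.33 ± 0.496 CPM at 0 h (SD, n = 3 each), while Manf rose.

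Genes of stress signalling moved unevenly. The 20 tested had a median change of 0.55, and 12 of them rose while 2 fell (25.1% and 22.5% over all tested genes). Atf4, a transcription factor whose own translation is favoured when PERK slows that of other mRNAs, rose by 0.72 (SE 0.12) and Atf6b, the paralogue of Atf6, by 0.79 (SE 0.14). Ddit3, which encodes the death-linked factor CHOP, was not called, at 11.8 ± 0.817 CPM at 5 days and 11.5 ± 1.89 CPM at 0 h (SD, n = 3 each), a change of 0.03 (SE 0.20). Ppp1r15a, the feedback subunit GADD34 that restores translation, was not called either, at 0.00 (SE 0.14). Chac1 and Trib3, targets of ATF4 and CHOP, rose by 2.89 (SE 0.67) and 2.80 (SE 0.55), with 36 and 69 reads over the 3 libraries at 5 days and only 5 and 10 reads at 0 h. Both passed the low-count filter only through the 5 day libraries. From such 0 h levels they could enter the test only by rising, so these 2 rises carry little weight. Creb3l1, with more reads, rose by 1.86 (SE 0.13), at 184.9 ± 31.1 CPM at 5 days and 50.8 ± 3.62 CPM at 0 h (SD, n = 3 each). Mbtps1, the protease that cuts ATF6 and the gene with the most reads of this group, was not called at -0.03 (SE 0.09). Crebrf fell by 1.17 (SE 0.11) and Eif2s1 by 0.53 (SE 0.10).

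Among 29 other tested genes of ERAD, 11 rose, 3 fell and 15 were not called. Over all tested genes 25.1% rose and 22.5% fell, and among those with a mean of at least 20 CPM 30.3% rose and 27.4% fell. The ERAD count was not tested against these shares. The largest rise was in Aup1, at 0.91 (SE 0.13), and the largest fall in the deubiquitinase Yod1, at -0.87 (SE 0.21), while Vcp, the ATPase that pulls proteins out of the ER membrane, was not called at 0.18 (SE 0.09). Among 29 other tested genes of translocation and glycosylation, 16 rose and 3 fell. Spcs3, a subunit of the signal peptidase that cuts the leader off new proteins, stood at 105.2, 98.1 and 122.6 CPM at 5 days and 27.9, 22.9 and 23.1 CPM at 0 h. With a change of 2.14 (SE 0.12, adjusted p = 6.99e-08 by edgeR) it changed more than Spcs1 and Spcs2 of the same enzyme, at 0.44 (SE 0.15) and 0.47 (SE 0.13), a difference that was not tested. Spcs1 was not called when replicate 1 or 3 of 0 h, or replicate 1 of 5 days, was left out (0.33 to 0.39), nor by DESeq2 with all libraries (0.45, adjusted p = 0.0527). Spcs2 was not called without replicate 1 of either time (0.36 without that of 5 days and 0.38 without that of 0 h). Srp14, of the signal recognition particle, fell by 0.65 (SE 0.11), and Sec62, with the most reads of this group, by 0.27 (SE 0.10). The Sec62 call was lost under 5 of 8 other settings, at -0.27 to -0.14, and on leaving out each library in turn except replicate 3 of 5 days, at -0.30 to -0.21.

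Other genes of transport between ER and Golgi rose for 23 of 38 tested, and 15 were not called (25.1% rose over all tested genes). Copa, of the COPI coat, had the most reads of the group and rose by 0.49 (SE 0.09). The KDEL receptors, which return escaped ER chaperones from the Golgi, rose together: Kdelr3 stood at 20.1, 16.4 and 27.5 CPM at 5 days and 4.98, 5.16 and 3.46 CPM at 0 h, a change of 2.24 (SE 0.25), and Kdelr2 and Kdelr1 rose by 1.10 (SE 0.11) and 0.71 (SE 0.13).

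**Figure D4:**
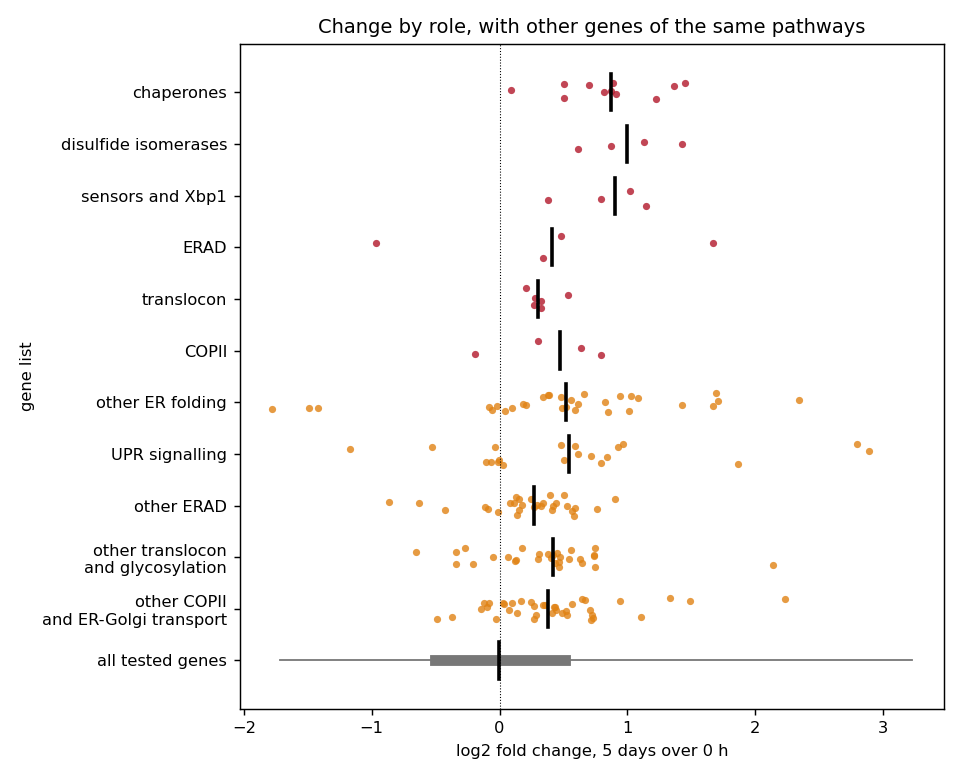
Points give the log2 fold change of 5 days over 0 h of each gene, red for the 33 genes by role and orange for other genes of the same pathways, with a black tick at the median of each list. The grey bar gives the middle 50% of all tested genes (-0.50 to 0.52) and the thin line the range from the 5th to the 95th percentile (-1.72 to 3.23); most points lie right of 0 and within that range.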

How the data were processed

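The authors deposited raw read counts per Ensembl gene for 6 libraries. The submitters' processing notes name HISAT2, HTSeq, edgeR and build GRCm39. Per the labels' protocols, libraries were made from total RNA with a stranded SMARTer Pico kit. No tool version, annotation release or strand setting is stated there, so counts of the 11 of the 33 genes whose exons overlap another gene's are uncertain. The 5 HTSeq summary entries, 32.26 to 42.55% of reads, were left out.

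Symbols came from GENCODE M21 for 91.23% of identifiers, and exon lengths are the union of its exons. Promoter sequences are from RefSeq, build GRCm38.p6. Close copies were sought with BLAST 2.17.0 (at least 90% identity over 200 bases). Genes kept by edgeR's default low-count filter were scaled with TMM and tested with edgeR 4.0.16 (R 4.3.3) in a fit of all 6 libraries, without a replicate term, and the test was tried on simulated counts. The SE is the log2 fold change divided by the square root of the F value.

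The 33 genes and all lists were chosen with earlier results of these data known. Values per library are given for the sensors and, in each other role, for the gene with the most reads, the largest called rise and fall and every called 2-fold change; other genes with values were added after these were seen. From each further list the gene with the most reads and the largest called rise and fall are named, with Atf4, Ddit3, Ppp1r15a, Atf6b and Mbtps1; others were picked after values were seen. Ddit3 has 2 identifiers, of which the older was used; the other held 0 reads. Tusc3 was not analysed here. Other settings were DESeq2 1.42.0, limma-voom (limma 3.58.1), other scalings and filters, a replicate block and each library left out. Figures used Python 3.11.15 and matplotlib 3.10.9.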

Additional observations from a re-analysis of the deposited data

How the results depend on the processing

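The counts of 27 genes higher and 1 lower held under DESeq2, limma-voom, DESeq2 size factors, TMM factors that left out crystallin, mitochondrial and ribosomal RNA genes, no filter and the stricter filter of 2 CPM in 3 libraries. Scaling by total library size shifted all log2 fold changes by a median of 0.13. It gave 30 higher and 1 lower and 12 rather than 8 genes at least 2-fold higher, with a median of 0.76 for the list against 0.63, and 62.9% of all calls were upward against 52.7% with TMM. With single libraries left out, 24 to 27 genes were higher, 1 lower, 7 to 10 at least 2-fold higher and 0 to 1 at least 2-fold lower (Herpud1, without replicate 2 at 5 days), and the list median was 0.57 to 0.69. Of the 28 called genes 24 kept their call and direction in all 14 of these fits; Dnajb9, Ssr1, Ssr3 and Mia3 did not. Among the other pathway genes, 71 to 96 were higher and 7 to 10 lower over all fits. The difference in the share of counts was 0.378 percentage points (mean 0.814% at 5 days and 0.436% at 0 h). Without crystallin, mitochondrial and ribosomal RNA genes it was 0.370 (0.924% at 5 days and 0.554% at 0 h). These differences rest on unlike totals, and relative to the 0 h share the rise was smaller without those genes. With a replicate block by title number the counts were 27 higher and 1 lower, and 78 and 9 for the other pathway genes. Deviations from the group means of same-numbered libraries correlated at 0.04, -0.09 and 0.06, so the numbers were not taken as pairs, and not every library correlated best with its own number. At 6207387 to 9774343 gene counts per library, Sdf2l1, Chac1, Trib3 and Fkbp11 had few reads and wide errors.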
